A study of Mus musculus with 9 samples.

Results

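Collagen chains are the polypeptides that wind into the helical trimers of the collagen matrix. All rows of a ribosome footprint count table with a symbol of the form Col, number, a, number were taken, which gave 44 of 55359 genes in mouse cells on their way from preadipocyte to beige adipocyte, a fat cell that can burn lipid for heat. Of the 44 chains, 33 passed the filter on low counts and were tested, 23 of them had a mean of at least 10 CPM (footprint counts scaled to library size, with library sizes scaled by the trimmed mean of M-values) in at least 1 group and are described one by one, and 11 were too low to test. Footprints are the pieces of mRNA that a ribosome shields from RNase, so a count reflects both how much of an mRNA there is and how densely it is translated, and RNA and protein levels of the same lysates were not analysed here. All libraries came from cultured preadipocytes of iWAT, the inguinal white fat that lies under the skin. The 3 day 0 libraries were not induced. The 3 day 4 and 3 day 8 libraries had 2 days in induction medium with dexamethasone, 3-isobutyl-1-methylxanthine, indomethacin, insulin, 3,3′,5-triiodo-L-thyronine and rosiglitazone, and then maintenance medium that lacked 3-isobutyl-1-methylxanthine, indomethacin and dexamethasone. Strain, sex and age of the mice are not given in the labels, nor whether replicates came from separate animals or cultures, so p-values measure the spread between these libraries only.

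As background, fibrillar collagens such as types I, III and V build the tensile fibres of the stroma in which fat precursors lie. Type IV chains form the sheet-like network of the basement membrane that wraps each fat cell, and the multiplexins, types XV and XVIII, sit in or next to that membrane and carry glycosaminoglycan chains. FACIT collagens decorate the surface of fibrils, type VI builds beaded filaments between fibrils and basement membranes, and type VIII makes a short chain network known from vessel walls and the cornea.

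Library totals ran from 30823028 to 38994892 counts. Within a group, 1 library stood apart at each later day: on the first principal component of log2 CPM, day 4 replicate 2 lay at 12.8 against 64.8 and 65.4 for its group, and day 8 replicate 3 lay at 62.1 against 85.5 and 85.8, in both cases toward day 0. Day 4 replicate 2 was higher than both other day 4 libraries in 19 of the 23 described chains, and day 8 replicate 3 was higher than both other day 8 libraries in 23 of 23. Each of them lay between the day 0 mean and the other libraries of its day in 15 of the 23 chains. These counts were not made over all genes, so they are not read as a trait of the collagen chains. Over all tested genes the deviations of these 2 libraries from their group means correlated at 0.314, the highest value of any pair of libraries from different days. Summed CPM of 8 adipocyte markers, all of them detected, ran from 259 to 323 at day 0, from 33426 (day 4 replicate 2) to 52482 at day 4 and from 50207 to 54076 at day 8. Summed CPM of 8 precursor markers, all of them detected, ran from 2431 to 2596, from 809 to 1841 (day 4 replicate 2) and from 533 to 738. The sum is mostly Pdgfrb and Pdgfra: at day 4 against day 0, 3 of the 8 markers were called higher (Cd34, Dlk1 and Ly6a) and 3 lower (Dpp4, Icam1 and Pdgfrb), and at day 8 against day 0, 4 were called lower. Markers of myofibroblasts and smooth muscle, 6 of 6 detected, summed to 3894 to 5859 CPM at day 0, 79.4 to 389 at day 4 and 237 to 413 at day 8, and their part in the changes below was not tested. Pericyte markers (5 of 5 detected) summed to 50.4 to 59.1 CPM at day 0, 64.4 to 83.7 at day 4 and 109.9 to 121 at day 8. The sum does not stand for each marker: the median log2 fold change of the 5 against day 0 was -0.88 at day 4 and -0.97 at day 8. At day 4, 1 pericyte marker was called higher and 1 lower, and at day 8, 2 were called higher and 1 lower. Endothelial markers (7 of 7) summed to 19.9 to 27.98, 6.06 to 20.1 and 3.42 to 8.03 CPM, with 5 of the 6 tested called lower at day 8 than at day 0. Macrophage markers (7 of 7) summed to 36.7 to 63.2, 46.4 to 62.1 and 17.2 to 37.7 CPM, and mesothelial markers (5 of 5) to 28.2 to 47.5, 37.7 to 88.3 and 30.8 to 33.3. Schwann cell markers (4 of 4) summed to 2.72 to 3.93, 2.88 to 4.15 and 3.79 to 4.17 CPM, and epithelial markers (5 of 5) to 0.557 to 1.02, 0.0581 to 0.165 and 0.140 to 0.187. Chondrocyte markers (4 of 5 detected, with Matn1 at 0 throughout) summed to 119 to 138 CPM at day 0, 43.3 to 90.4 at day 4 and 14.8 to 27.6 at day 8. At day 8 against day 0, 5 of 6 myofibroblast and smooth muscle markers were called lower and 1 higher. Of the macrophage markers 3 of 7 were called lower, and of the chondrocyte markers all 3 that were tested. No mesothelial or Schwann cell marker was called there. Of all tested genes, 29.8% were called higher and 28.4% lower at day 4 against day 0, and 34.2% and 33.5% at day 8 against day 0. The part of these marker lists in the changes below was not tested either. The handling of reads that match several genes is not given in the sources used here, so counts of closely related chains could in part be shared. In such bulk libraries fewer cells of a type and fewer footprints per cell cannot be told apart.

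Collagen footprints were a smaller part of the library at each later day. All 44 chains together took 14.1% ± 1.19 (SD, n = 3) of the counts at day 0, 7.36% ± 1.43 at day 4 and 3.53% ± 1.24 at day 8. The single libraries held 13.5%, 13.4% and 15.5% at day 0, 6.49%, 9.01% and 6.58% at day 4, and 2.71%, 2.94% and 4.95% at day 8, so no 2 groups overlapped. Without the libraries that stood apart the means were 6.53% at day 4 and 2.82% at day 8. The fall was not shared by all chains: Col4a1 and Col4a2, Col6a1, Col6a2 and Col6a3, both multiplexins and the type V chain Col5a3 were called higher at day 4 than at day 0. Counts grow with coding length, so a chain's share of the counts is not its share of the collagen molecules.

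In edgeR's quasi-likelihood test, called at an adjusted p under 0.05 over all 14714 tested genes, 8 of 33 chains were higher at day 4 than at day 0, where 29.8% of all tested genes were called higher, and 16 were lower, where 28.4% were, so that 24 were called in either direction (58.2% of all genes). At day 8 against day 0, 6 chains were higher (34.2% of all genes) and 23 were lower (33.5%), 29 in all (67.7%). Between day 4 and day 8, 1 chain was higher (14.7%), the weakly detected Col27a1, and 15 were lower (17.1%), 16 in all (31.8%). Counted by groups whose libraries do not overlap, 8 chains were higher and 19 lower at day 4 against day 0 (32% and 32.8% of all genes), 7 higher and 24 lower at day 8 against day 0 (37.8% and 38.2%), and 2 higher and 17 lower at day 8 against day 4 (22.2% and 23%). The median log2 fold change over the 33 tested chains was -1.08, -2.22 and -1.25 in these 3 comparisons, against -0.02, -0.01 and -0.02 over all tested genes. Both comparisons with day 0 use the same 3 day 0 libraries. Weak chains such as Col9a2, Col10a1 and Col6a6 passed the filter through their day 0 counts, so for them mainly a fall could be called. With a minimum count of 30 in the filter, 6 chains were higher and 20 lower at day 8 against day 0. In that fit 9251 of 12863 tested genes were called in either direction. Without day 4 replicate 2 and day 8 replicate 3 (a fit chosen after seeing the data), 34 chains could be tested: 8 were higher and 20 lower at day 4 against day 0 (33.3% and 33.3% of all genes), 6 higher and 24 lower at day 8 against day 0 (35.6% and 35.2%), and 1 higher and 22 lower at day 8 against day 4 (16.6% and 19.9%). In either direction these were 28 (66.6%), 30 (70.9%) and 23 chains (36.5%). The 1 chain higher at day 8 than at day 4 was then Col28a1 in place of Col27a1. Leaving out day 0 replicate 1, day 4 replicate 1 or day 4 replicate 3 brought the lower calls at day 4 against day 0 down to 10, and leaving out day 8 replicate 1 or 2 brought those at day 8 against day 4 down to 7 and 8. The count of 1 higher at day 8 than at day 4 went to 0 on leaving out any 1 day 0 library, day 4 replicate 1 or any 1 day 8 library.

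**Figure D1:**
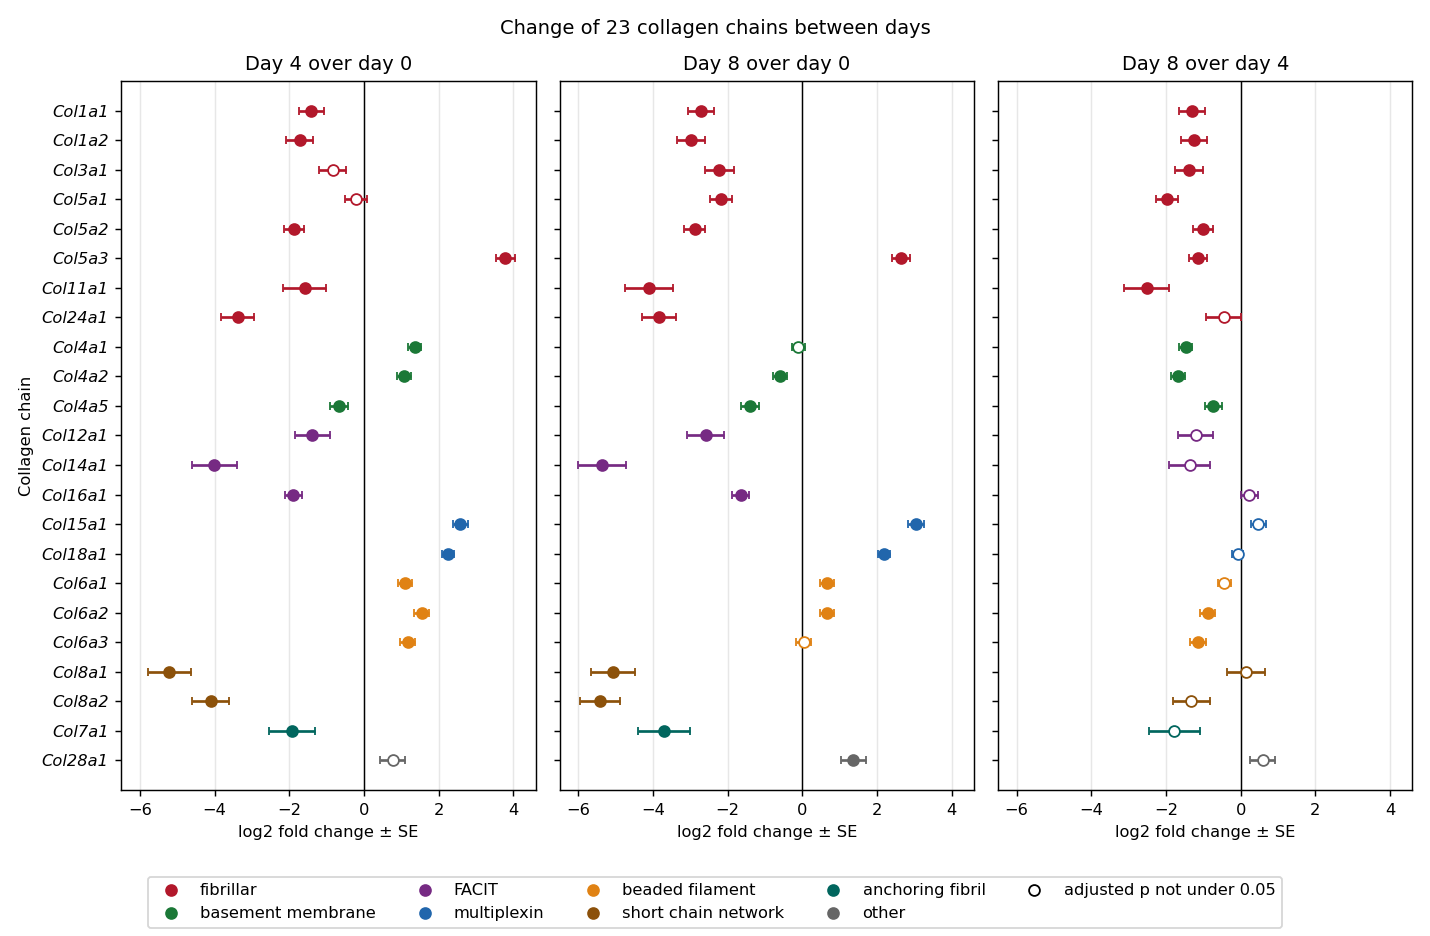
Fitted log2 fold change (horizontal axis) with its SE for the 23 described chains (vertical axis, coloured by class) in the 3 comparisons of days; filled points have an adjusted p under 0.05. Multiplexin and type VI chains lie to the right of 0 or at it against day 0, FACIT and short chain network chains lie to the left of it against day 0, and Col5a3 stands apart from the other fibrillar chains at 3.78 and 2.65.

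Promoter sequence is shown for 2 fibrillar chains that were called lower at day 8 (Col1a2 and Col3a1) and for the largest rises among the fibrillar chains and the multiplexins (Col5a3 and Col15a1). The sequences are the 250 bases before the RefSeq start on build GRCm38.p6, read 5′ to 3′ in the direction of transcription: chr6:4505368-4505617 (plus strand), chr1:45311288-45311537 (plus), chr9:20815068-20815317 (minus) and chr4:47207762-47208011 (plus). Capitals mark matches to CCAAT or GGGCGG on either strand and to TATAAA in the direction of transcription only, with overlapping matches allowed.
Col1a2: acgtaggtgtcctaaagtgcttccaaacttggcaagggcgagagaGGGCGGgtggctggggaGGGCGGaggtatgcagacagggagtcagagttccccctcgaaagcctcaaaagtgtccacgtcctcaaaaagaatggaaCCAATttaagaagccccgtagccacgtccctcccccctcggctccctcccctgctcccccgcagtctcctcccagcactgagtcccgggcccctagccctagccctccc
Col3a1: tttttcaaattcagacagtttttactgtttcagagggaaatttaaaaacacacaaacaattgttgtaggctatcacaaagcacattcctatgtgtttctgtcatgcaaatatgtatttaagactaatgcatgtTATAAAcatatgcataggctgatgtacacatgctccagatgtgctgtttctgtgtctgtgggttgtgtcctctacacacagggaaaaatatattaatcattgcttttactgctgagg
Col5a3: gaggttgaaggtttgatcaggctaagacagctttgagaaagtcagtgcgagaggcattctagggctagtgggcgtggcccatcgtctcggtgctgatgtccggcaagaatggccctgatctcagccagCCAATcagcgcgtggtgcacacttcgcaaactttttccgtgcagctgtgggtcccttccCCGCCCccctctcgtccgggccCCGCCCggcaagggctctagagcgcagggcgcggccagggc
Col15a1: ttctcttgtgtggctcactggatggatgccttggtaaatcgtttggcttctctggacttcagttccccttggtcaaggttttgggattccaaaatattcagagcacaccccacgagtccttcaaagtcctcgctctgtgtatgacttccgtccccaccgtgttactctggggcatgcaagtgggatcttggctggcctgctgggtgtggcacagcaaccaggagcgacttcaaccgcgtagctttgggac
In these windows Col1a2 held 1 CCAAT match, 109 bases before the start, and 2 GGGCGG matches at 205 and 188 bases. Col3a1 held a TATAAA match 117 bases before the start. Col5a3 held 1 CCAAT match at 122 bases and 2 GGGCGG matches at 63 and 41 bases, and no letters of Col15a1 matched. The 38 windows found came from 35 of the 44 chains, with none for Col1a1, Col5a2, Col12a1 or Col14a1, among others. Over these windows, CCAAT occurred in 34.2% (33.8% of all 32851 windows of the same length), TATAAA in 13.2% (7.59%) and GGGCGG in 57.9% (32.7%). The element bound by PPAR and RXR, written as AGGTCA repeated after any 1 base, on either strand, occurred in 0 of 38 collagen windows and 0.0335% of all windows. Only exact matches were counted, and they are so rare (11 of 32851 windows) that 38 windows are too few to show a difference. A match is a description of letters and not a binding site.

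Type I collagen, the main fibre-forming collagen, is a heterotrimer of the Col1a1 and Col1a2 products, and both chains fell at each step. Col1a1 stood at 47569, 48690 and 56861 CPM at day 0, at 16247, 24920 and 16485 at day 4 and at 5214, 6220 and 11861 at day 8. Col1a2 stood at 29239, 29142 and 35896 CPM, then at 7667, 13013 and 7915, and then at 2829, 2934 and 6255. For both chains no 2 groups overlapped, and the highest library of each later day was the one that stood apart. Against day 0, Col1a1 was 2.66-fold lower at day 4 (log2 fold change -1.41 ± 0.34 SE, adjusted p = 0.00526) and 6.57-fold lower at day 8 (-2.72 ± 0.36, adjusted p = 9.54e-05). Col1a2 was 3.30-fold lower at day 4 (-1.72 ± 0.36, adjusted p = 0.00221) and 7.85-fold lower at day 8 (-2.97 ± 0.37, adjusted p = 7.31e-05). From day 4 to day 8 Col1a1 was 2.47-fold lower (adjusted p = 0.0171) and Col1a2 2.38-fold lower (adjusted p = 0.0234). This last step was not called when day 8 replicate 1 or day 8 replicate 2 was left out, with adjusted p = 0.0668 and 0.0688 for Col1a1 and 0.0894 and 0.0890 for Col1a2 (1.21e-05 to 0.104 and 1.3e-05 to 0.138 over all alternatives).

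Type III collagen, made of the Col3a1 product alone, forms finer fibres together with type I, and was called lower at day 8. Col3a1 stood at 24010, 23261 and 28884 CPM at day 0, at 12171, 15043 and 15337 at day 4 and at 3083, 4056 and 9173 at day 8. The groups did not overlap, and day 8 replicate 3 was at 2.57 times the mean of the other day 8 libraries. The day 4 value was 1.79-fold below day 0 without passing the test (log2 fold change -0.84 ± 0.37, adjusted p = 0.0733). It did pass without day 8 replicate 1 (adjusted p = 0.0495), without day 8 replicate 3 (0.00775), without both libraries that stood apart (-0.88, adjusted p = 0.00037) and in DESeq2 (0.0259), with 0.00037 to 0.263 over all alternatives. Col3a1 was 4.67-fold lower at day 8 than at day 0 (-2.22 ± 0.38, adjusted p = 0.000531), and the value was -2.82 without day 8 replicate 3. It was 2.61-fold lower at day 8 than at day 4 (-1.38 ± 0.37, adjusted p = 0.0196), a change of -1.99 without day 8 replicate 3 and one that ceased to be called when day 8 replicate 1 (adjusted p = 0.0631) or 2 (0.0763) was left out (1.07e-05 to 0.11 over all alternatives).

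The chains of type V collagen, which starts fibrils and limits their width, went different ways. Col5a2 stood at 7447, 8642 and 9272 CPM at day 0, at 1914, 3099 and 1931 at day 4 and at 1004, 901 and 1532 at day 8. It fell 3.65-fold by day 4 (log2 fold change -1.87 ± 0.27, adjusted p = 0.000232) and 7.38-fold by day 8 (-2.88 ± 0.28, adjusted p = 1.46e-05), as the type I chains did. Col5a1 stood at 3029, 2963 and 3553 CPM, then at 2243, 3514 and 2487, and then at 484, 581 and 1044. The day 4 libraries of Col5a1 overlapped day 0 (-0.21 ± 0.28, adjusted p = 0.545), and the fall came between day 4 and day 8, when it was 3.91-fold lower (-1.97 ± 0.29, adjusted p = 0.00153). Without both libraries that stood apart, Col5a1 was already lower at day 4 (-0.42, adjusted p = 0.00796; 0.00796 to 1.0 over all alternatives). Col5a2 was 2.02-fold lower at day 8 than at day 4 (adjusted p = 0.0167), which was not called without day 8 replicate 1 (0.0680) or 2 (0.0677; 9.98e-05 to 0.159 over all alternatives).

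Col5a3, the chain of type V that occurs in fewer tissues, was the fibrillar chain that rose. It stood at 60.0, 61.7 and 111 CPM at day 0, at 1197, 970 and 1044 at day 4 and at 409, 524 and 528 at day 8. Every library of both later days lay above every day 0 library, and day 8 lay wholly below day 4. Against day 0, Col5a3 was 13.8-fold higher at day 4 (log2 fold change 3.78 ± 0.26, adjusted p = 2.27e-06), 6.27-fold higher at day 8 (2.65 ± 0.25, adjusted p = 1.26e-05) and it was 2.20-fold lower at day 8 than at day 4 (-1.14 ± 0.24, adjusted p = 0.00662). Day 4 replicate 2, the library nearest to day 0, had the lowest Col5a3 value of its group.

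The fibrillar chains best known from cartilage and bone fell to low levels. Col11a1, a type XI chain of cartilage fibrils, stood at 373, 371 and 529 CPM at day 0, at 66.6, 289 and 67.3 at day 4 and at 14.5, 18.7 and 40.5 at day 8. Its day 4 mean rests on replicate 2, which was 4.32 times the mean of the other day 4 libraries. The fall at day 4 was 3.01-fold (log2 fold change -1.59 ± 0.58, adjusted p = 0.0374), and -2.66 without that library (adjusted p = 0.000135), while leaving out any day 0 library or another day 4 library ended the call (adjusted p from 0.0612 to 0.116, with 6.07e-08 to 0.116 over all alternatives). By day 8 it was 17.3-fold lower than at day 0 (-4.11 ± 0.64, adjusted p = 0.0003). The step from day 4 to day 8 (-2.52 ± 0.60, adjusted p = 0.012) shrank to -1.45 without day 4 replicate 2, and the call was lost without day 8 replicate 1 (adjusted p = 0.0517) or 2 (0.0520; 1.19e-05 to 0.052 over all alternatives). Col24a1, a chain known from developing bone, stood at 10.6, 13.2 and 15.9 CPM at day 0, at 0.959, 1.60 and 1.24 at day 4 and at 0.558, 0.428 and 1.79 at day 8. It fell 10.4-fold by day 4 (-3.38 ± 0.45, adjusted p = 0.000142) and 14.3-fold by day 8 (-3.84 ± 0.46, adjusted p = 5.64e-05, or -4.73 without day 8 replicate 3). Day 8 overlapped day 4 (-0.46 ± 0.47, adjusted p = 0.489), and without day 8 replicate 3 it was lower (-1.36, adjusted p = 0.0145; 0.0145 to 1.0 over all alternatives).

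The other 3 fibrillar chains were near the detection limit, with group means of at most 2.88 CPM. Col27a1, a cartilage chain, had means of 2.88 ± 0.235 (SD, n = 3), 0.736 ± 0.218 and 1.32 ± 0.310 CPM. It fell by day 4 (-1.97 ± 0.28, adjusted p = 0.000249) and by day 8 (-1.12 ± 0.27, adjusted p = 0.00425), and was 1.80-fold higher at day 8 than at day 4 (0.85 ± 0.29, adjusted p = 0.0477). Col2a1, the main cartilage chain, fell from 1.39 ± 0.0284 CPM to 0.657 ± 0.0967 at day 4 and 0.231 ± 0.166 at day 8, in each comparison with an adjusted p under 0.05 (0.0332, 0.000411 and 0.0269 for day 8 against day 4). Col11a2 reached at most 0.365 CPM and was not called.

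**Figure D2:**
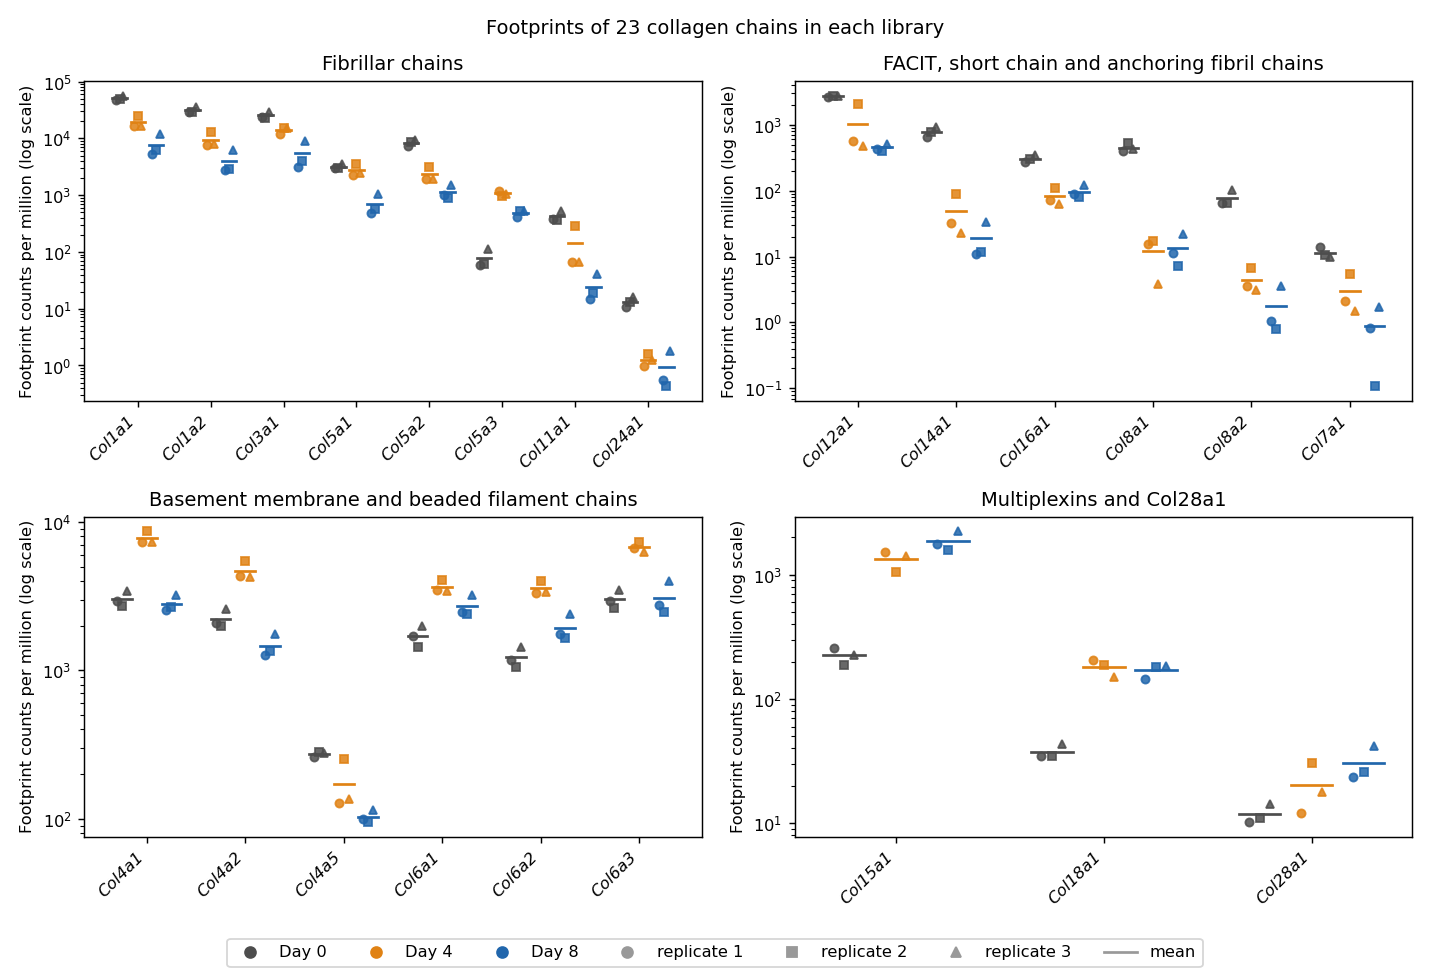
Scaled CPM (vertical axis, log scale, in 4 panels by class) of the 23 described chains (horizontal axis) in each of the 9 libraries, coloured by day, with the marker shape giving the replicate and the line the mean of 3 libraries. Col1a1 drops from a mean of 51040 CPM to 19217 and 7765, Col15a1 climbs from 224 to 1336 and 1853, and day 4 replicate 2 (orange square) lies above its group in Col11a1, Col12a1 and Col14a1.

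The main type IV chains of the basement membrane rose at day 4 and returned at day 8 to the day 0 level or below it. The most widespread type IV heterotrimer is built from the Col4a1 and Col4a2 products. Col4a1 stood at 2932, 2729 and 3424 CPM at day 0, at 7384, 8655 and 7372 at day 4 and at 2547, 2673 and 3202 at day 8. Col4a2 stood at 2103, 1983 and 2603 CPM, then at 4356, 5484 and 4278, and then at 1276, 1358 and 1766. In both chains every day 4 library lay above every library of the other days. Col4a1 rose 2.58-fold from day 0 to day 4 (log2 fold change 1.37 ± 0.17, adjusted p = 0.000111) and fell 2.78-fold from day 4 to day 8 (-1.47 ± 0.17, adjusted p = 0.000518). Col4a2 rose 2.11-fold (1.08 ± 0.19, adjusted p = 0.0009) and fell 3.21-fold (-1.68 ± 0.19, adjusted p = 0.000474). Day 8 against day 0, Col4a1 libraries overlapped (-0.11 ± 0.17, adjusted p = 0.587), while Col4a2 was 1.52-fold lower (-0.60 ± 0.19, adjusted p = 0.0168), a call that was lost without day 0 replicate 3 (0.0713), day 8 replicate 1 (0.0748) or day 8 replicate 2 (0.0662; 0.000159 to 0.383 over all alternatives).

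The Col4a1 and Col4a2 genes lie head to head with overlapping ends. On GRCm38.p6 the RefSeq start of Col4a1 is at 11312826 (minus strand) and that of Col4a2 at 11312805 (plus strand). The starts are thus 21 bases apart, each inside the other gene. The windows from 250 bases before to 50 after each start share 78 bases. Col4a5 and Col4a6, the neighbouring pair of type IV genes known from kidney and smooth muscle membranes, were not called higher at day 4. Col4a5 stood at 262, 282 and 277 CPM at day 0, at 127, 253 and 135 at day 4 and at 100, 94.7 and 115 at day 8. It was 1.59-fold lower at day 4 (-0.67 ± 0.23, adjusted p = 0.0308), with day 4 replicate 2 close to the day 0 libraries, and 2.65-fold lower at day 8 (-1.41 ± 0.24, adjusted p = 0.000467). The day 4 call was lost on leaving out any day 0 library or either of the other day 4 libraries (adjusted p from 0.0630 to 0.114; 4.65e-07 to 0.339 over all alternatives). The further fall from day 4 to day 8 (-0.73 ± 0.23, adjusted p = 0.0372) was lost without any single day 0 library and without day 8 replicate 1 or 2 (adjusted p from 0.0558 to 0.117; 0.00331 to 0.475 over all alternatives). Col4a6 stood at 1.31, 5.06 and 1.63 CPM at day 4, where replicate 2 was above every day 0 library, and this day was not called against day 0 (adjusted p = 0.194). It fell from 4.33 ± 0.536 CPM at day 0 to 1.01 ± 0.130 at day 8 (adjusted p = 0.00259). Col4a4 reached at most 0.552 CPM and was lower at day 8 than at day 0 (adjusted p = 0.00826), and Col4a3 had 1 to 11 counts per library and was not tested.

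Type VI collagen, whose beaded filaments lie close to basement membranes and whose Col6a3 chain yields the released fragment endotrophin, rose at day 4 in all of its main chains. Col6a1 stood at 1700, 1441 and 1988 CPM at day 0, at 3480, 4091 and 3406 at day 4 and at 2487, 2395 and 3247 at day 8. Col6a2 stood at 1183, 1056 and 1432 CPM, then at 3318, 4022 and 3385, and then at 1749, 1641 and 2412. Col6a3 stood at 2920, 2632 and 3491 CPM, then at 6680, 7293 and 6335, and then at 2765, 2489 and 4003. Day 4 lay wholly above day 0 and above day 8 in all 3 chains, and day 8 lay wholly above day 0 in Col6a1 and Col6a2 only. At day 4 the rise was 2.14-fold for Col6a1 (1.10 ± 0.19, adjusted p = 0.000665), 2.92-fold for Col6a2 (1.55 ± 0.20, adjusted p = 0.000111) and 2.25-fold for Col6a3 (1.17 ± 0.21, adjusted p = 0.00103). At day 8 Col6a1 and Col6a2 were each 1.58-fold above day 0 (adjusted p = 0.009 and 0.0118). The Col6a2 call was lost without day 0 replicate 2 (adjusted p = 0.0540; 0.00055 to 0.278 over all alternatives). The Col6a3 value at day 8 against day 0 was 0.03 ± 0.21 (adjusted p = 0.894), and its sign changed with the scaling, to -0.07 with upper quartile factors.

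From day 4 to day 8 Col6a2 fell 1.85-fold (-0.89 ± 0.19, adjusted p = 0.00829) and Col6a3 fell 2.19-fold (-1.13 ± 0.21, adjusted p = 0.0041). Col6a1 was at -0.43 ± 0.18 (adjusted p = 0.0981), which became a call without day 8 replicate 3 (-0.59, adjusted p = 0.0422; 0.0149 to 1.0 over all alternatives). The type VI chains with narrower expression were low. Col6a5 fell from 2.52 ± 1.01 CPM at day 0 to 0.543 ± 0.256 at day 4 (adjusted p = 0.0014) and 0.0729 ± 0.0294 at day 8 (adjusted p = 2.94e-05). Col6a6 reached at most 0.91 CPM and was lower at day 8 than at day 0 (adjusted p = 0.00669), and Col6a4 had 0 to 10 counts per library and was not tested.

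Both multiplexins rose and stayed high. Type XV collagen (Col15a1) bridges the basement membrane to nearby fibrils. Col15a1 stood at 258, 188 and 225 CPM at day 0, at 1531, 1060 and 1418 at day 4 and at 1754, 1575 and 2229 at day 8. All later libraries lay above all day 0 libraries, day 8 lay above day 4, and day 4 replicate 2 was the lowest of its group. It was 5.97-fold higher at day 4 (log2 fold change 2.58 ± 0.21, adjusted p = 5.83e-06) and 8.28-fold higher at day 8 (3.05 ± 0.21, adjusted p = 2.1e-06). Day 8 against day 4 gave 0.47 ± 0.20 (adjusted p = 0.0924), and 0.62 (adjusted p = 0.0333) with library totals in place of scaling factors, with 0.0333 to 1.0 over all alternatives.

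Type XVIII collagen (Col18a1) is a heparan sulfate proteoglycan of basement membranes, and its end fragment is endostatin. Col18a1 stood at 34.6, 35.0 and 43.1 CPM at day 0, at 204, 187 and 149 at day 4 and at 145, 182 and 183 at day 8. Both later days lay above day 0 and overlapped each other. The rise was 4.79-fold at day 4 (2.26 ± 0.16, adjusted p = 2.47e-06) and 4.53-fold at day 8 (2.18 ± 0.16, adjusted p = 2.69e-06), and the value between the later days was -0.08 ± 0.15 (adjusted p = 0.712), with a sign that changed to 0.06 under library totals.

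All 4 FACIT chains that could be tested fell against day 0, though the weak Col9a2 passed the filter only through its day 0 counts. Type XIV collagen (Col14a1), which coats fibrils and regulates their growth, fell most among them. Col14a1 stood at 646, 768 and 925 CPM at day 0, at 32.7, 90.1 and 22.7 at day 4 and at 10.9, 11.6 and 33.9 at day 8. It was 16.1-fold lower at day 4 (log2 fold change -4.01 ± 0.60, adjusted p = 0.000322, and -4.81 without day 4 replicate 2) and 41.4-fold lower at day 8 (-5.37 ± 0.64, adjusted p = 5.55e-05, and -6.10 without day 8 replicate 3). The 2 libraries that stood apart were the highest of their groups, at 3.25 and 3.02 times the mean of the others, and the later days overlapped (-1.37 ± 0.55, adjusted p = 0.0839). Day 8 was lower than day 4 without both of them (-1.30, adjusted p = 0.000356), without day 8 replicate 3 alone (-2.11, adjusted p = 0.0179) and without day 4 replicate 3 (-1.71, adjusted p = 0.047), with 0.000356 to 0.344 over all alternatives.

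Type XII collagen (Col12a1), a long FACIT chain of tension-bearing tissue, stood at 2680, 2778 and 2726 CPM at day 0, at 573, 2074 and 480 at day 4 and at 432, 405 and 520 at day 8. Day 4 replicate 2 was thus near day 0 and the other day 4 libraries near day 8. The fall at day 4 was 2.62-fold (-1.39 ± 0.47, adjusted p = 0.0275) with that library and -2.37 without it (adjusted p = 2.6e-07), and the call was lost on leaving out any day 0 library or another day 4 library (adjusted p from 0.0599 to 0.0867; 3.61e-09 to 0.0867 over all alternatives). At day 8 it was 6.03-fold lower than at day 0 (-2.59 ± 0.49, adjusted p = 0.000962). Day 8 against day 4 was -1.20 ± 0.47 (adjusted p = 0.0742) and, without both libraries that stood apart, -0.33 (adjusted p = 0.0348). It was also called without day 4 replicate 1 (adjusted p = 0.0352) or 3 (0.0284), with 0.0141 to 0.31 over all alternatives. Col16a1, a type XVI chain found beside both fibrils and microfibrils, stood at 273, 298 and 345 CPM at day 0, at 73.5, 111 and 63.3 at day 4 and at 89.5, 79.1 and 122.8 at day 8. It was 3.70-fold lower at day 4 (-1.89 ± 0.23, adjusted p = 8.8e-05) and 3.14-fold lower at day 8 (-1.65 ± 0.23, adjusted p = 0.000141), and the later days overlapped. Col9a2, a cartilage FACIT chain, fell from 1.43 ± 0.195 CPM to 0.382 ± 0.218 (adjusted p = 0.0247) and 0.108 ± 0.141 (adjusted p = 0.00133). The other 5 FACIT genes (Col9a1, Col9a3, Col19a1, Col20a1 and Col22a1) had 0 to 16 counts per library and were not tested.

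The 3 short chain network chains had the lowest median change of the classes, at -4.11 at day 4 and -5.07 at day 8 on the log2 scale. Col8a1 and Col8a2 encode the chains of type VIII collagen. Col8a1 stood at 406, 522 and 425 CPM at day 0, at 15.3, 17.3 and 3.89 at day 4 and at 11.2, 7.21 and 21.9 at day 8. Col8a2 stood at 64.4, 64.4 and 102 CPM, then at 3.60, 6.63 and 3.16, and then at 1.06, 0.802 and 3.53. No later library reached a day 0 level in either chain, and the later days overlapped. Col8a1 was 37.0-fold lower at day 4 (log2 fold change -5.21 ± 0.59, adjusted p = 5.09e-05) and 33.5-fold lower at day 8 (-5.07 ± 0.58, adjusted p = 4.25e-05). Col8a2 was 17.2-fold lower at day 4 (-4.11 ± 0.49, adjusted p = 7.64e-05) and 43.0-fold lower at day 8 (-5.43 ± 0.53, adjusted p = 1.69e-05, and -6.35 without day 8 replicate 3). Between the later days Col8a2 was at -1.32 ± 0.50 (adjusted p = 0.0712) and was called without day 8 replicate 3 (-2.26, adjusted p = 0.00483; 0.00107 to 0.287 over all alternatives). Col10a1, the chain of growth plate cartilage, had means of 0.621, 0.177 and 0.0462 CPM and was lower at day 8 than at day 0 (adjusted p = 0.0036).

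Among the remaining chains 1 fell and 1 rose. Col7a1, the anchoring fibril chain that ties epithelial basement membrane to the stroma, stood at 14.1, 10.6 and 9.82 CPM at day 0, at 2.12, 5.45 and 1.49 at day 4 and at 0.837, 0.107 and 1.71 at day 8. It was 3.80-fold lower at day 4 (log2 fold change -1.93 ± 0.63, adjusted p = 0.0233, and -2.67 without day 4 replicate 2), a call lost without day 0 replicate 1 (0.0754), day 4 replicate 1 (0.0727) or day 4 replicate 3 (0.0793; 6.95e-05 to 0.0793 over all alternatives). It was 13.1-fold lower at day 8 (-3.71 ± 0.70, adjusted p = 0.000975, and -4.60 without day 8 replicate 3). Day 8 against day 4 was -1.78 ± 0.69 (adjusted p = 0.0741), and without day 8 replicate 3 -2.69 (adjusted p = 0.0277; 0.014 to 0.253 over all alternatives). Col28a1, a chain with von Willebrand factor A domains known from peripheral nerve, stood at 10.2, 11.1 and 14.2 CPM at day 0, at 12.03, 30.8 and 17.8 at day 4 and at 23.4, 25.8 and 42.1 at day 8. Day 8 lay above day 0, at 2.57-fold (1.36 ± 0.34, adjusted p = 0.00475), and day 4 overlapped both (0.77 ± 0.33, adjusted p = 0.0708 against day 0). The libraries that stood apart were the highest of their days, and without day 4 replicate 2 the day 4 value was 0.34 and not called. Against day 0 it was called at day 4 without day 4 replicate 1 (1.04, adjusted p = 0.0172) or day 8 replicate 3 (0.79, adjusted p = 0.0481; 0.0172 to 0.295 over all alternatives). Day 8 against day 4 was 0.59 ± 0.33 (adjusted p = 0.197), and without day 4 replicate 2 it was called higher (1.03, adjusted p = 0.0156; 0.0124 to 0.852 over all alternatives). Of the transmembrane chains only Col23a1 could be tested, reached at most 1.12 CPM and was not called. Col13a1, Col17a1, Col25a1 and Col26a1 had 0 to 11 counts per library.

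Set side by side, the classes of the tested chains split as follows, and differences between classes were not tested. At day 4 against day 0, 1 of 11 fibrillar chains was higher and 7 were lower (median log2 fold change -1.41), 2 of 5 basement membrane chains were higher and 1 was lower (-0.66), all 4 FACIT chains were lower (-1.89) and both multiplexins were higher (2.42). Of 5 beaded filament chains 3 were higher and 1 was lower (1.10). At day 8 against day 0, 1 fibrillar chain was higher and 9 were lower (-2.58), 4 basement membrane chains were lower (-1.41), 4 FACIT chains were lower (-3.13), both multiplexins were higher (2.61), and 2 beaded filament chains were higher and 2 lower (0.03). From day 4 to day 8, 1 fibrillar chain was higher and 8 were lower (-1.25), 4 basement membrane chains were lower (-1.47), 3 beaded filament chains were lower (-1.13), and no FACIT chain (-1.29) or multiplexin (0.19) was called in edgeR. At an unadjusted p under 0.05 edgeR gave 3 of the 4 FACIT chains as lower and 1 multiplexin as higher, DESeq2 called 1 FACIT chain lower and limma-voom none. These counts stand against 29.8%, 34.2% and 14.7% of all tested genes called higher and 28.4%, 33.5% and 17.1% called lower. A class median gives each chain the same weight, including the weak Col9a2 and Col6a6, which passed the filter only through day 0. The basement membrane median at day 4 against day 0 was the value of the weakly detected Col4a4, which was not called. The main chains Col4a1 and Col4a2 were at 1.37 and 1.08 there. At day 8 against day 0 the median was the value of Col4a5, with Col4a1 and Col4a2 at -0.11 and -0.60.

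The makeup of the collagen footprints moved accordingly. Fibrillar chains held 88.2% ± 0.309 (SD, n = 3) of the collagen counts at day 0, 62.3% ± 2.35 at day 4 and 55.5% ± 6.92 at day 8. The later days overlapped in this share, with 63.0% in day 8 replicate 3 against 59.9% to 64.6% at day 4. Basement membrane chains held 4.06% ± 0.138, 16.2% ± 0.925 and 13.3% ± 2.44, and beaded filament chains 4.36% ± 0.306, 18.0% ± 1.56 and 23.2% ± 3.25. Multiplexins rose from 0.193% ± 0.0321 of collagen counts to 2.00% ± 0.608 and 6.14% ± 1.10, with no overlap between any 2 groups. FACIT chains held 2.82% ± 0.198, 1.39% ± 0.891 and 1.73% ± 0.309, and at day 4 the 2.42% of replicate 2 stood against 0.982% and 0.783%. Col1a1, Col1a2 and Col3a1 together held 79.0% to 79.4% of collagen counts in the day 0 libraries, 52.1% to 56.2% at day 4 and 42.1% to 56.4% at day 8, where the highest share was that of replicate 3. As a part of all counts the fibrillar chains went from 12.5% ± 1.05 to 4.61% ± 1.05 and 2.01% ± 0.965, while the multiplexins went from 0.0272% ± 0.00382 to 0.141% ± 0.0216 and 0.208% ± 0.0341. Basement membrane chains went from 0.574% ± 0.0581 of all counts to 1.19% ± 0.165 and 0.451% ± 0.0622, and beaded filament chains from 0.617% ± 0.0808 to 1.31% ± 0.145 and 0.796% ± 0.169. FACIT chains went from 0.396% ± 0.0132 to 0.111% ± 0.0926 and 0.0586% ± 0.00948.

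**Figure D3:**
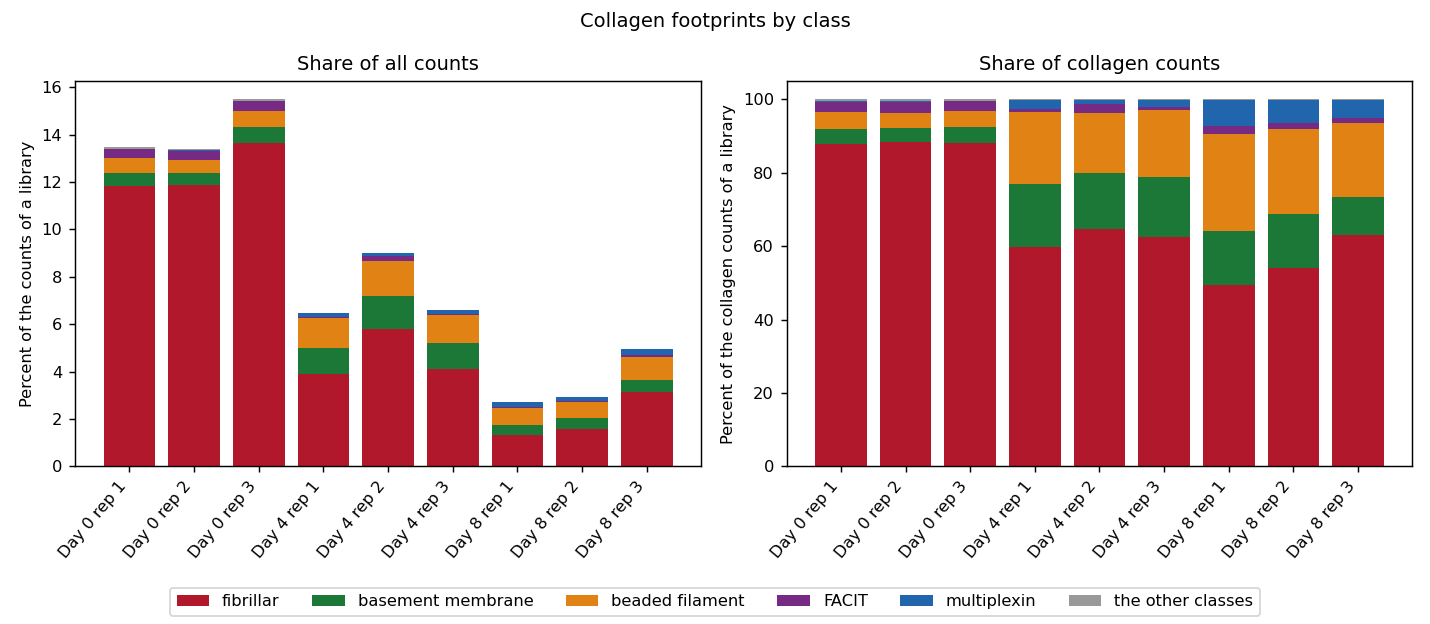
Stacked bars of collagen counts by class in each of the 9 libraries, as percent of all counts (left panel) and as percent of collagen counts (right panel). The collagen total drops from 13.4% to 15.5% of counts at day 0 to 2.71% to 4.95% at day 8, and the fibrillar part of it from between 87.8% and 88.4% to between 49.3% and 63.0%, with day 4 replicate 2 and day 8 replicate 3 the tallest bars of their days in the left panel.

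Chains of the same collagen type changed unequally, which was tested on 7 ratios of raw counts within a library. Such a ratio carries the coding lengths of both genes and so is read only across libraries, and it needs no scaling between them. Each ratio was tested exactly, by permutation of the 9 libraries over the days in every possible arrangement, with the sum of squares between days of the log2 ratio as the statistic, two-sided by construction, with a smallest possible p of 0.00357 and with p-values adjusted over the 7 ratios. Col5a1 over Col5a2 was 0.407, 0.343 and 0.383 at day 0, 1.17, 1.13 and 1.29 at day 4 and 0.482, 0.644 and 0.681 at day 8, with no overlap between any 2 groups (exact p = 0.00357, adjusted 0.00833). Col5a3 over Col5a1 was 0.0198, 0.0208 and 0.0314 at day 0, 0.534, 0.276 and 0.420 at day 4 and 0.845, 0.903 and 0.506 at day 8 (exact p = 0.00714, adjusted 0.0125). The later days overlapped in that ratio, and the low value at each was the library that stood apart.

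Among the other types, Col4a1 over Col4a2 was 1.36 ± 0.0416 (SD, n = 3) at day 0, 1.67 ± 0.0769 at day 4 and 1.93 ± 0.0991 at day 8, with no overlap (exact p = 0.00357, adjusted 0.00833). Col1a1 over Col1a2 was 1.63 ± 0.0434, 2.04 ± 0.109 and 1.95 ± 0.147 (exact p = 0.0179, adjusted 0.025), with day 0 below both later days, which overlapped. Col6a3 over Col6a2 was 2.47 ± 0.0269, 1.90 ± 0.103 and 1.59 ± 0.0719, with no overlap (exact p = 0.00357, adjusted 0.00833). Col6a1 over Col6a2 dipped at day 4, at 1.40 ± 0.0371, 1.02 ± 0.0220 and 1.41 ± 0.0575, and day 8 overlapped day 0 (exact p = 0.0286, adjusted 0.0286). Col8a1 over Col8a2 spread widely, at 6.18 ± 1.98, 2.70 ± 1.51 and 8.59 ± 2.19 (exact p = 0.0214, adjusted 0.025), and only day 4 and day 8 did not overlap. That last ratio missed the threshold in 6 of the 9 fits that left out 1 library, with adjusted p from 0.0536 to 0.0857 in the exact test. On ranks (a Kruskal-Wallis statistic over the same arrangements) the Col1a1, Col6a1 and Col8a1 ratios missed it too, with exact adjusted p = 0.07, 0.0833 and 0.0857.

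**Figure D4:**
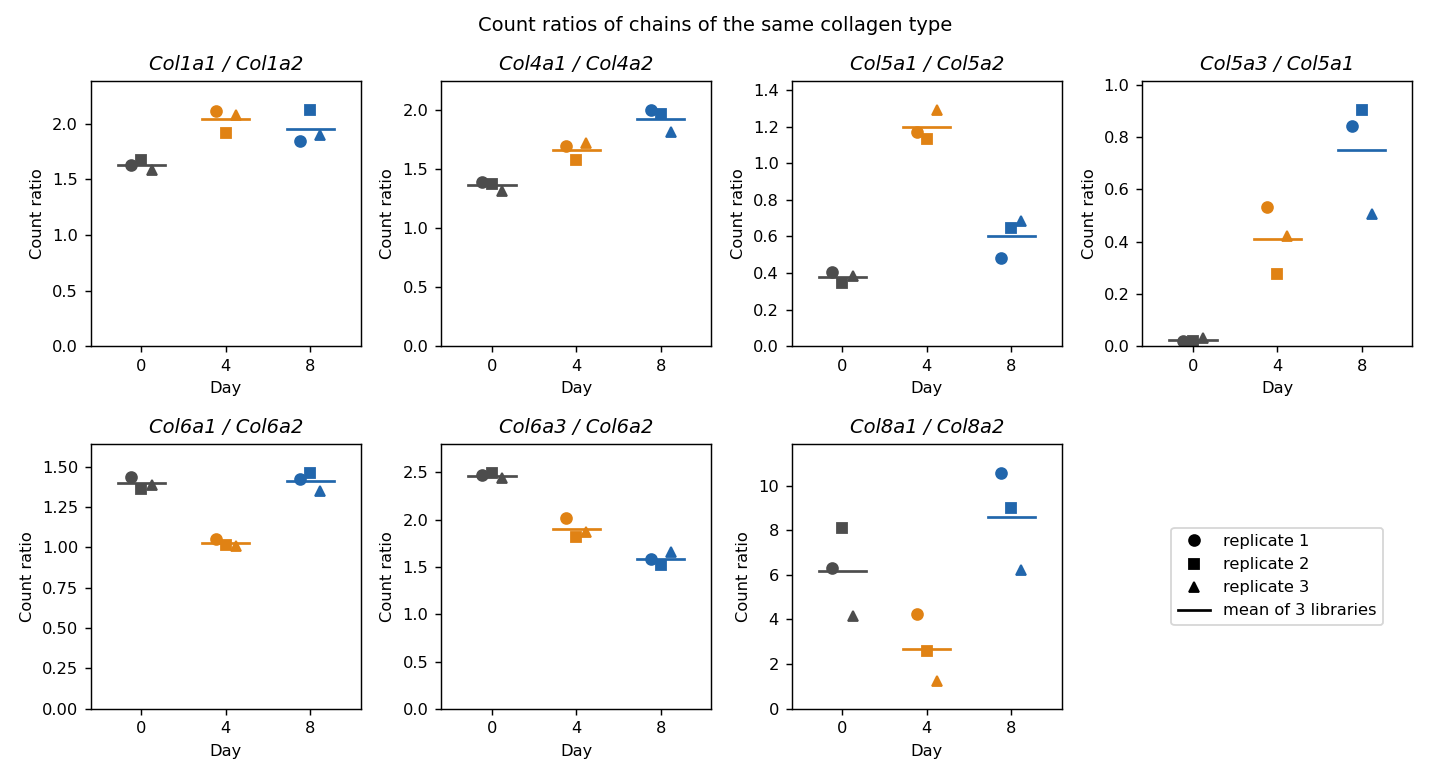
Raw count ratio of 2 chains of the same collagen type (vertical axis, from 0) against day (horizontal axis) for 7 pairs of chains, with 1 point per library and a line at the mean of 3. Col5a1 over Col5a2 peaks at day 4 at a mean of 1.20, Col5a3 over Col5a1 climbs from 0.0240 to 0.410 and 0.751, and Col4a1 over Col4a2 steps up from 1.36 to 1.67 and 1.93.

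Genes that make, modify and cross-link collagen were mostly lower as well. Of 36 such genes 34 were tested, and 2 were higher and 19 lower at day 4 against day 0 (median log2 fold change -0.60), 1 was higher and 27 lower at day 8 against day 0 (-1.23), and 2 were higher and 20 lower at day 8 against day 4 (-0.59), beside the shares of all genes given above. Serpinh1, the collagen chaperone HSP47, had means of 3737, 1890 and 1180 CPM and fell against day 0 at day 4 (-0.98, adjusted p = 0.00121) and day 8 (-1.66, adjusted p = 3.67e-05). Fkbp10, a prolyl isomerase for procollagen, had means of 507, 200 and 70.7 CPM and was lower at both days (-1.34, adjusted p = 0.00176, and -2.84, adjusted p = 1.75e-05). Plod1, a lysyl hydroxylase that prepares chains for cross-linking, was the exception among the prominent members: its means were 324, 693 and 995 CPM, higher at day 4 (1.10, adjusted p = 0.000265) and at day 8 (1.62, adjusted p = 1.86e-05). Its relatives Plod2 and Plod3 were lower at both days (-1.34 and -1.17, adjusted p = 0.00125 and 0.00211, for Plod2, and -0.48 and -1.16, adjusted p = 0.0265 and 0.000148, for Plod3).

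Of 13 genes for collagen breakdown and uptake 11 were tested, and 1 was higher and 5 lower at day 4 (29.8% and 28.4% of all genes; median -1.17), 0 were higher and 10 lower at day 8 against day 0 (34.2% and 33.5%; -1.86), and 0 were higher and 2 lower at day 8 against day 4 (14.7% and 17.1%; -0.36). At an unadjusted p under 0.05 edgeR gave 0 and 1 as higher in the last 2 comparisons, and DESeq2 called 1 and 1, limma-voom 0 and 0. Mmp13, a collagenase, had means of 18.7, 0.294 and 0.612 CPM (-5.98, adjusted p = 2.33e-05 at day 4, and -4.92, adjusted p = 3.47e-05 at day 8). Mrc2, the receptor that takes up collagen fragments, had means of 1767, 413 and 321 CPM and was lower at both days (-2.10, adjusted p = 0.000175, and -2.46, adjusted p = 5.02e-05). The 1 gene called higher at day 4 was Ctsb, a lysosomal protease. Of 11 collagen receptors 8 were tested, and beside the same shares of all genes 0 were higher and 6 lower at day 4 (-1.30), 1 was higher and 6 lower at day 8 against day 0 (-1.39), and 4 were higher and 0 lower at day 8 against day 4 (0.39). At an unadjusted p under 0.05 edgeR gave 0 as higher at day 4 and 1 as lower at day 8 against day 4, and DESeq2 and limma-voom called 0 in both cases. Without both libraries that stood apart 9 receptors were tested, with 5 higher and 2 lower at day 8 against day 4 (16.6% and 19.9% of all genes in that fit). Itga11, the integrin chain for fibrillar collagen, had means of 1136, 98.4 and 239 CPM, was lower than day 0 at both days (-3.53, adjusted p = 4.58e-06, and -2.25, adjusted p = 4.24e-05) and higher at day 8 than at day 4 (1.28, adjusted p = 0.00511). The others higher from day 4 to day 8 were Itga1, Itga2 and Adgrg1.

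All 12 proteins that bind to or organise fibrils were tested, and 1 was higher and 4 lower at day 4 (29.8% and 28.4% of all genes; median -0.71), 0 higher and 11 lower at day 8 against day 0 (34.2% and 33.5%; -2.06), and 0 higher and 10 lower at day 8 against day 4 (14.7% and 17.1%; -1.26). The counts of 0 were 0 as well at an unadjusted p under 0.05 in edgeR and in DESeq2 and limma-voom. Without the 2 libraries that stood apart 10 of them were lower at day 4 against day 0, and likewise 10 of 11 genes of breakdown and uptake and 26 of 34 of biosynthesis, where 33.3% of all genes were lower in that fit against 28.4% with all libraries. Fn1, fibronectin, had means of 26257, 8296 and 3057 CPM and was lower at both days (-1.66, adjusted p = 0.00407, and -3.10, adjusted p = 9.21e-05). Bgn, a small proteoglycan of fibrils, had means of 7131, 2906 and 1414 CPM (-1.30, adjusted p = 0.00447, and -2.33, adjusted p = 0.000112). Tnxb, tenascin X, was the 1 member higher at day 4, at 20.0, 69.5 and 26.1 CPM (1.79, adjusted p = 0.000839), and was lower again at day 8 against day 4 (-1.41, adjusted p = 0.0086).

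Collagen genes that neighbour each other on a chromosome were also set side by side, and 8 such pairs were found in RefSeq, of which 5 had both genes tested. At day 8 against day 0 Col3a1 and Col5a2 were at -2.22 and -2.88, Col6a2 and Col6a1 both at 0.66, Col4a1 and Col4a2 at -0.11 and -0.60, Col4a6 and Col4a5 at -2.10 and -1.41, and Col6a6 and Col6a5 at -3.71 and -5.04 on the log2 scale. The 2 values of a pair had the same sign in all 5 pairs in this comparison and at day 4 against day 0. At day 8 against day 0, 23 of the 33 tested chains were called lower, so a shared sign is frequent for any 2 chains. Some of the values were not called, such as Col4a1 at day 8 (adjusted p = 0.587) and Col6a6 at day 4 (0.249) in the edgeR fit. No test was run on these pairs, which were listed with the values in view.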

How the data were processed

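Ribosome footprints were counted per gene in 9 libraries of mouse iWAT preadipocytes. The deposited raw counts came, per the submitters' processing notes, from reads trimmed with cutadapt, aligned with HISAT2 to GRCm39 and counted with featureCounts; versions, strand setting and treatment of multiply mapped reads were not given in the sources used here. Of 55359 genes, 14714 passed filterByExpr (minimum count 10). All libraries entered 1 edgeR 4.0.16 quasi-likelihood fit (R 4.3.3) with trimmed mean of M-values scaling, and p-values were Benjamini-Hochberg adjusted over all tested genes, with calls under 0.05. Each chain with a group mean of at least 10 CPM was named with its values. The members and gene lists were chosen with earlier results of these data known, and the scripts were tested on simulated counts. There, 200 genes were changed per comparison, and 82% to 88% of the 4-fold and 51% to 53% of the 2-fold changes put in were called. In the data 31.8% to 67.7% of tested genes were called, which makes the adjusted threshold less strict. The simulated shares therefore do not carry over to these data, where small changes can still be missed. Footprints per coding length were planned but not computed, since no lengths were at hand. Levels of different chains are therefore set side by side as counts only, not as numbers of molecules. Promoter windows are RefSeq's on GRCm38.p6, used for sequence only. Alternatives included DESeq2 1.42.0, limma-voom (limma 3.58.1), other scalings and filters, and leaving out each library.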

Additional observations from a re-analysis of the deposited data

How the results depend on the processing

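Of the 69 fold changes of described chains (23 chains in 3 comparisons), a test against a fold of 1.5 in place of no change ended 14 calls. It also left 10 lower calls at day 4 against day 0, 6 lower at day 8 against day 4 and 0 higher there. Fitting only the groups compared left 9 lower and 0 higher calls at day 8 against day 4, and it ended the calls of Col1a2 (adjusted p = 0.0573), Col3a1 (0.0533) and Col4a5 (0.0871) there and of Col12a1 (0.0609) and Col4a5 (0.0692) at day 4 against day 0. Higher calls at day 8 against day 4 were 2 with library totals and 0 without a low-count filter or with limma-voom. With a replicate block, which joins libraries that share only a number (their deviations from the group means correlated between -0.2 and 0.188), they were 0, lower calls there were 14, and Col4a5 there (adjusted p = 0.0593) and Col7a1 at day 4 against day 0 (0.0501) were no longer called. Leaving out 1 library gave 10 to 18 lower calls at day 4 against day 0, and 7 to 20 lower and 0 to 1 higher at day 8 against day 4. Library totals moved the median log2 fold change of all genes by -0.154 at day 4 against day 0 and by 0.142 at day 8 against day 4, where the share of called genes that were higher went from 46.2% to 65.9%. Among these fold changes, signs changed only in values that were not called: Col18a1 at day 8 against day 4 (0.059 with library totals, -0.20 to 0.018 with 1 library left out), Col6a3 at day 8 against day 0 (-0.072 with upper quartile factors, -0.19 without both libraries that stood apart, -0.19 to 0.18 with 1 left out) and Col8a1 at day 8 against day 4 (-0.061 without both, -0.41 to 0.48 with 1 left out). With a rank statistic the log2 difference in ratio between day 8 and day 0 is the same by construction (0.26 for Col1a1 over Col1a2, 0.012 for Col6a1 over Col6a2, 0.48 for Col8a1 over Col8a2), but the exact tests missed the threshold. With 1 library left out that difference ran from -0.013 to 0.045 for Col6a1 over Col6a2 and from 0.22 to 0.70 for Col8a1 over Col8a2. The cause of these changes was not tested. Chains under 10 CPM rest on few counts.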
